A study of Mus musculus with 13 samples.

Results

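RNA levels of 9 genes of the Nodal pathway were examined in mouse embryonic stem cells (mESCs) in which a mutant CTCF was induced: the ligands Nodal and Gdf3, the co-receptor Tdgf1, the secreted antagonists Lefty1, Lefty2 and Cer1, and the effectors Foxh1, Smad2 and Smad3. They are 9 of the 24421 genes in the deposited counts and were chosen by symbol, after the differences between cultures with and without doxycycline (dox) in these same libraries were known. Values of that comparison, and counts of the genes that passed a threshold, are therefore given for them as a description and not as a test, with no p-value for a single gene. The series holds 13 samples, of which the 4 RNA-seq libraries are used here, while its ChIP-seq and Hi-C data were not analysed here. All 4 libraries come from F1-2.1 cells, a female mESC line from a cross of the CAST/Ei and 129/Sv/Jae backgrounds. They carry a randomly integrated Tet-on transgene for 3xFLAG-tagged CTCF S224E, in which glutamate replaces serine to mimic phosphoserine, co-expressed with EGFP, and still have their own Ctcf. Every culture was 1 clone (A2) grown over irradiated fibroblast feeders in serum with LIF. The +dox group (2 libraries, replicates 1 and 2) received 1 μg/mL dox for 6 days, and the −dox group (2 libraries, replicates 1 and 2) received none for the same time. Cultures with dox but lacking the transgene were not analysed here, and dox itself and CTCF S224E cannot be told apart.

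Nodal is a secreted ligand of the TGF-β family. With an EGF-CFC co-receptor such as Tdgf1 (Cripto), it binds activin receptors, which phosphorylate Smad2 and Smad3, and these enter the nucleus with Smad4 and bind DNA together with partners such as Foxh1. The pathway switches on Nodal itself and also its own antagonists of the Lefty family, so it is known as a loop of activation and feedback inhibition. In the early embryo it patterns the primitive streak and the endoderm, and in mESCs several of its components are expressed without differentiation.

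Counted reads per library ran from 22899107 to 30206085. Reads per gene are given as CPM, reads of a gene relative to the library size, which was scaled by TMM, and replicates of the same group differed by more than counting noise (chi-square per degree of freedom of 19.2 with dox and 13.2 without). Ctcf, the targeted gene, stood at 327 and 329 CPM with dox and at 295 and 304 CPM without, a log2 difference of 0.13 (SE 0.09) that did not pass the test (adjusted p = 0.475, edgeR's quasi-likelihood test), and these counts do not separate the transgene from the cells' own Ctcf. The study reports that part of its RNA-seq reads over the mutated codon carried the glutamate codon. It also shows the induced FLAG-tagged protein by western blot. Markers of mESCs were present, as the summed level of 10 stem cell genes was 5993 and 6765 CPM with dox and 5384 and 5779 CPM without, led by Pou5f1 (949 to 1254 CPM) and Esrrb (927 to 1070 CPM). That sum was higher in both +dox libraries, and 9 of the 10 genes had a log2 fold change above 0, with a median of 0.16. Summed over 14 fibroblast genes, the level was 891 CPM in +dox replicate 1, 345 CPM in +dox replicate 2, and 269 and 264 CPM in the −dox libraries, so that +dox replicate 1 stood apart. The collagen genes Col1a1 and Col1a2, its highest members, had 247 and 149 CPM there, against 94.9 and 57.4 CPM in +dox replicate 2 and between 35.6 and 67.7 CPM without dox. All 14 of these genes had a log2 fold change above 0, beside 10178 of all 20044 genes tested. In 11 of the 14, both +dox libraries were above both −dox libraries, beside 4665 of the 20044. edgeR's test called 0 of the 14 at an adjusted p under 0.01. The part of the stem cell and fibroblast genes in the differences described here was not tested. Log2 fold changes without +dox replicate 1 are given only for Gdf3, Tdgf1, Lefty1, Cer1, Foxh1 and Smad3.

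With dox, Cer1 differed most from its −dox level. Differences of the other 8 genes were far smaller, up to 1.44-fold lower (Smad3) and 1.43-fold higher (Gdf3). Cer1 fell from about 5 CPM to near 0, with a fitted log2 fold change of −5.55 (SE 0.41, n = 2 libraries per group). Log2 fold changes of the other 8 genes ran from −0.53 for Smad3 to 0.52 for Gdf3, and the median of all 9 was 0.04, beside 0.01 over all genes tested. At an adjusted p-value under 0.01 by edgeR's quasi-likelihood test with Benjamini-Hochberg adjustment, 1 of the 9 genes was called lower and 0 higher, and 4 of the 9 had an unadjusted p under 0.05. Of all 20044 genes tested, 3566 had an unadjusted p under 0.05 (17.8%), and 120 were called in either direction (0.599%), of which 104 were lower (0.519%) and 16 higher (0.0798%). DESeq2, the tool of the study, called 2 of the 9, Cer1 lower and Gdf3 higher, and 375 of the 13826 genes to which it gave an adjusted p-value (2.71%). The +dox and −dox libraries did not overlap in CPM for 6 of the 9 genes, with Nodal, Gdf3 and Foxh1 higher with dox and Lefty2, Cer1 and Smad3 lower. Over all 13911 genes averaging 1 CPM or more, the groups of 2 libraries did not overlap for 7482 (53.8%). All 9 genes reached that level, Cer1 only through its −dox libraries.

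**Figure D1:**
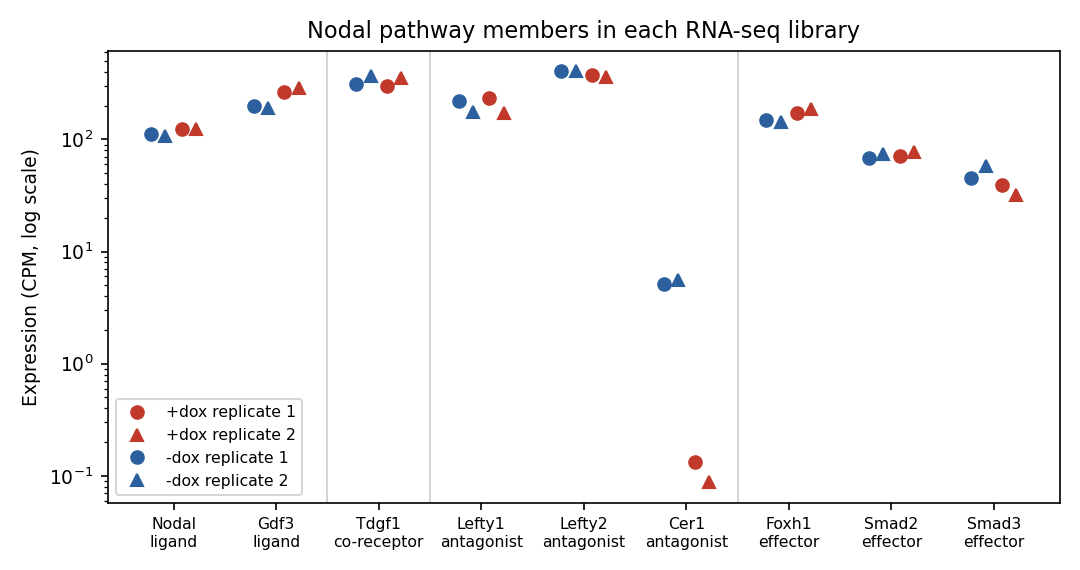
Expression of the 9 genes in each of the 4 libraries, in CPM on a log scale, with red symbols for +dox and blue for −dox, circles for replicate 1 and triangles for replicate 2. The Cer1 libraries with dox sit near 0.1 CPM and those without near 5 CPM, while every other gene keeps all 4 libraries between 32.0 and 405 CPM.

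Among the ligands, Nodal (chr10:60880720-60888085, plus strand, mm9) had 2787 and 2844 reads with dox and 3446 and 2681 without. These are 124 and 124 CPM with dox (124 ± 0.527, SD, n = 2) and 113 and 107 CPM without (110 ± 4.23, SD, n = 2). Both +dox libraries were above both −dox libraries, by a margin that was small beside the level itself, with a log2 fold change of 0.18 (SE 0.10). Within each replicate the +dox to −dox ratio was 1.10 in replicate 1 (exact 95% interval 1.04 to 1.15) and 1.17 in replicate 2 (1.10 to 1.23). Such an interval covers counting error only and compares 2 libraries, not the conditions.

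Gdf3 (chr6:122555421-122560089, minus strand), a TGF-β family ligand expressed in pluripotent cells, differed more. Its level was 268 and 290 CPM with dox (279 ± 15.7, SD, n = 2) against 199 and 190 CPM without (195 ± 6.45, SD, n = 2). The gap between the groups was wider than the spread within either, and the fitted log2 fold change was 0.52 (SE 0.09), or 1.43-fold. The replicates gave 1.34 (exact interval 1.30 to 1.39) and 1.52 (1.47 to 1.58). Its log2 fold change was 0.57 without +dox replicate 1. The call depends on the test, as edgeR's default test did not make it and DESeq2 did.

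Tdgf1 (chr9:110842112-110848662, minus strand), the co-receptor that lets Nodal engage its receptors, had 300 and 354 CPM with dox (327 ± 38.2, SD, n = 2) and 311 and 365 CPM without (338 ± 37.8, SD, n = 2). The groups overlapped, and in both conditions replicate 2 was the higher library. Its log2 fold change was −0.05 (SE 0.11), with the opposite sign (0.07) when +dox replicate 1 was left out. Of the 50-nt windows of its exons, 75.8% occur once in the mm9 genome, and a count of unique reads can miss the rest in every library.

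The antagonists Lefty1 (chr1:182865170-182868532, plus strand) and Lefty2 (chr1:182823239-182829238, plus strand) are neighbouring genes for secreted proteins that block Nodal and its co-receptor, and both are direct outputs of the pathway. Lefty1 stood at 234 and 171 CPM with dox (203 ± 44.6, SD, n = 2) and at 220 and 175 CPM without (198 ± 32.3, SD, n = 2). Replicate 1 was higher than replicate 2 in both conditions, the groups overlapped, and the log2 fold change was 0.04 (SE 0.14), with the opposite sign (−0.21) when +dox replicate 1 was left out. Lefty2 stood at 373 and 358 CPM with dox (366 ± 11.2, SD, n = 2) and at 405 and 404 CPM without (405 ± 1.03, SD, n = 2). Both +dox libraries of Lefty2 lay below both −dox libraries, by a log2 fold change of −0.15 (SE 0.08), or 1.11-fold. The 2 genes share 303 of their 50-nt exon windows, and 80.4% of the windows of Lefty1 and 84.6% of those of Lefty2 occur once in the genome, and a read within the shared stretches is not unique to either gene.

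Cer1 (chr4:82527655-82531055, minus strand) encodes Cerberus, a secreted antagonist that binds Nodal and is known from the anterior endoderm and the primitive streak region of the embryo. Only 3 and 2 reads were counted with dox, against 158 and 141 without. This gives 0.133 and 0.0876 CPM with dox (0.110 ± 0.0323, SD, n = 2) and 5.17 and 5.62 CPM without (5.40 ± 0.316, SD, n = 2). The groups were far apart and the replicates of each group were close together. Within replicate 1 the +dox to −dox ratio was 0.0258 (exact 95% interval 0.00526 to 0.0767), and within replicate 2 it was 0.0156 (0.00187 to 0.0574). Single-replicate log2 fold changes, damped by a prior count of 2, were −4.63 and −5.09. Without +dox replicate 1 the fitted value was −5.87 and the gene was called, whereas without either −dox replicate it was −5.60 or −5.49 and was not called. Those 2 fits called 0 of all genes, with 1753 and 1450 at an unadjusted p under 0.05. In bulk RNA, fewer cells that express Cer1 and less Cer1 RNA per cell cannot be told apart.

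The stretch of 250 bases before the transcription start (RefSeq, GRCm38.p6) could be read for Nodal, Tdgf1, Cer1 and Smad3, and no entry was matched for Gdf3, Lefty1, Lefty2, Foxh1 and Smad2. A set of 3 motifs was searched on both strands: AATNCACA (bound by FOXH1), CAGACA (which holds the SMAD box) and AGGNGGC (in the core of the CTCF motif). They occur in 3.18%, 17.1% and 25.0% of 32851 promoter windows of the same length. Cer1 is shown because it carries the largest difference, Smad3 because it is the other of these 4 genes that was lower in both +dox libraries, and Nodal as the ligand of the pathway. Capitals mark the matches, and each run reads 5′ to 3′ on the strand of the gene.
Cer1 (chr4:82885152-82885401, minus strand): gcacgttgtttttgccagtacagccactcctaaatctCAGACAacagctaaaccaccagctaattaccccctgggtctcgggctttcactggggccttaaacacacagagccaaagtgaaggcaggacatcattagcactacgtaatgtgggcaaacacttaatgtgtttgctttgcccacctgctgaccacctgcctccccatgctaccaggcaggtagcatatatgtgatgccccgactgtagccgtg
Smad3 (chr9:63757995-63758244, minus strand): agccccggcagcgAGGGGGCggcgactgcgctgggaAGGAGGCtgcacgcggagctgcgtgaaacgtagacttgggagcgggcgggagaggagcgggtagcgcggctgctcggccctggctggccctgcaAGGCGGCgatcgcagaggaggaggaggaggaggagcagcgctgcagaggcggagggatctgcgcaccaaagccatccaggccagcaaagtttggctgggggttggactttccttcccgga
Nodal (chr10:61417722-61417971, plus strand): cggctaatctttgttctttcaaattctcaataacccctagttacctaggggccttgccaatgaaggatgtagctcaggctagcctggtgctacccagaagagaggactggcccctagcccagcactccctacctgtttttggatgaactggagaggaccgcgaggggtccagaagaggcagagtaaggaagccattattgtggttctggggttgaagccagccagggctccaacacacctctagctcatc
Cer1 holds CAGACA once, 213 bases before the start, and neither of the other motifs. Smad3 holds AGGNGGC at 3 places, as AGGGGGC 237, AGGAGGC 214 and AGGCGGC 120 bases before the start, in a window of 69.2% GC. Nodal and Tdgf1 hold none of the 3 motifs in this window. These are matches of letters and were not compared with binding data.

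Foxh1 (chr15:76498654-76500378, minus strand), the forkhead factor that brings Smad complexes to DNA, had 173 and 187 CPM with dox (180 ± 10.3, SD, n = 2) and 148 and 142 CPM without (145 ± 3.96, SD, n = 2). Both +dox libraries were above both −dox libraries, by a log2 fold change of 0.31 (SE 0.09), or 1.24-fold, and of 0.37 without +dox replicate 1.

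Smad2 and Smad3 are the receptor-activated Smads that carry the signal to the nucleus. For Smad2 (chr18:76401355-76471401, plus strand) the values were 71.5 and 77.2 CPM with dox (74.4 ± 4.02, SD, n = 2) and 68.5 and 74.4 CPM without (71.5 ± 4.19, SD, n = 2). These overlapped, and the log2 fold change was 0.06 (SE 0.11). Smad3 (chr9:63494574-63605801, minus strand) had 39.2 and 32.0 CPM with dox (35.6 ± 5.13, SD, n = 2) and 45.1 and 57.8 CPM without (51.4 ± 8.93, SD, n = 2). Both +dox libraries of Smad3 were lower than both −dox libraries, but the replicates differed in size, since the +dox to −dox ratio was 0.869 in replicate 1 (exact 95% interval 0.798 to 0.947) and 0.554 in replicate 2 (0.506 to 0.606). The fitted log2 fold change of Smad3 was −0.53 (SE 0.15), and it ran from −0.70 to −0.34 over the alternative fits. Leaving out +dox replicate 1 gave −0.69.

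**Figure D2:**
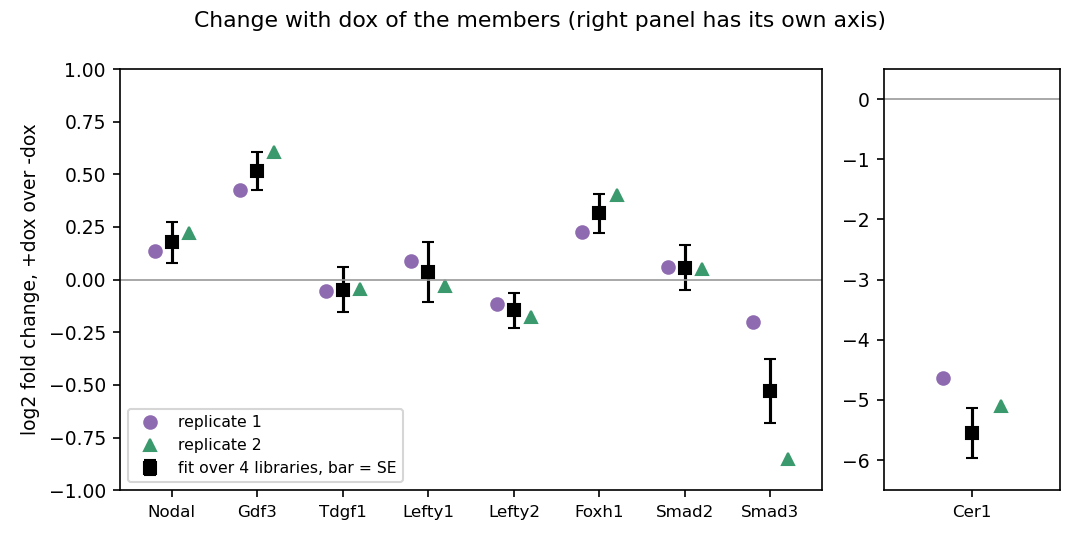
Log2 fold change, +dox over −dox, of each of the 9 genes, with circles for replicate 1, triangles for replicate 2 (both with a prior count of 2) and squares for the fit over 4 libraries with its SE. Cer1 has its own axis and lies at −5.55, while the other genes lie between −0.53 (Smad3) and 0.52 (Gdf3), and the replicates of Lefty1 fall on opposite sides of 0.

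Levels of different genes were compared per length, as RPKM, the CPM per kilobase of the transcript in the count tables. Averaged over the 4 libraries, Tdgf1 was highest at 173 RPKM (156 to 190), followed by Lefty2 at 156 RPKM (145 to 164), Lefty1 at 125 RPKM (107 to 146), Foxh1 at 119 RPKM (104 to 138) and Gdf3 at 113 RPKM (90.4 to 138). These 5 form a group in which each gene overlapped the next in its range over libraries. Nodal came next at 56.0 RPKM (51.2 to 59.6), below every library of Gdf3. Far lower were Smad3 at 8.57 RPKM (6.29 to 11.4) and Smad2 at 8.34 RPKM (7.84 to 8.83), which overlapped each other but not Nodal. Cer1 was lowest at 1.58 RPKM, from 0.0504 with dox to 3.23 without. The place of Smad2 depends on its length, as the tables use a transcript of 8739 nt and the GENCODE exons within the counted interval come to 3428 nt, which would place Smad2 at 21.3 RPKM and above Smad3 at 7.85 RPKM. That second length was tried after seeing the data, and it cancels when 1 gene is compared between libraries. Only unique reads were counted, and 75.8% of the exon windows of Tdgf1, 84.6% of Lefty2 and 80.4% of Lefty1 occur once in the genome. The share was 97.2% for Gdf3 and 100% for Foxh1 and Nodal. Levels were not corrected for this, so the order of the 5 highest and ratios of the Lefty genes to Nodal may depend on it.

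**Figure D3:**
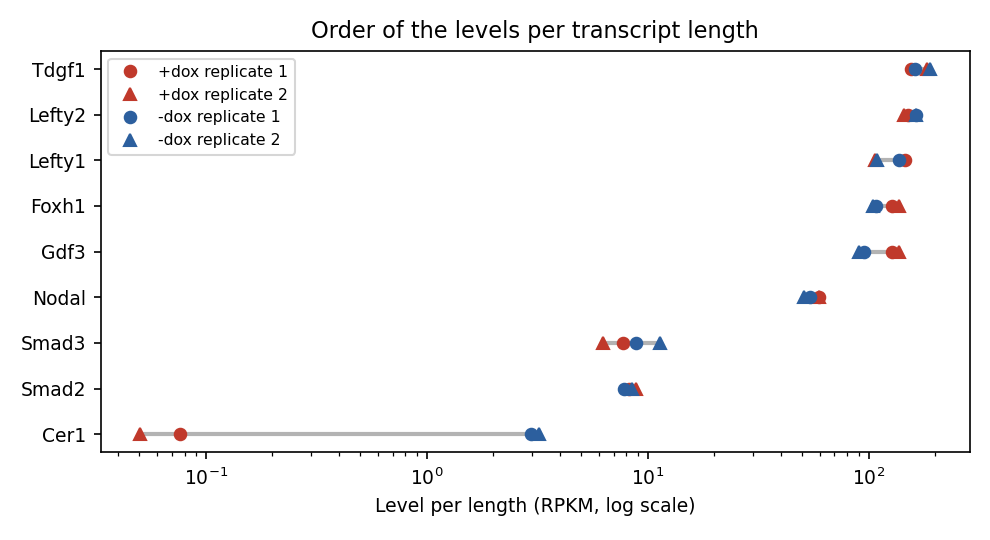
Level of each gene per transcript length in the 4 libraries, in RPKM on a log scale, ordered by the mean, with a grey line from the lowest to the highest library. Tdgf1, Lefty2, Lefty1, Foxh1 and Gdf3 sit between 90.4 and 190 RPKM, Nodal between 51.2 and 59.6, and Cer1 spans 0.0504 to 3.23.

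Ratios between the genes were taken within each library. The level of Lefty1 and Lefty2 together was 5.02 and 4.22 times that of Nodal in the +dox libraries and 5.59 and 5.33 times in the −dox libraries, per length, so it was lower in both +dox libraries. Gdf3 was 2.14 and 2.31 times Nodal with dox and 1.75 and 1.77 times without. The ratio of Smad2 to Smad3 was 1.06 and 1.40 with dox and 0.883 and 0.749 without, so their order turned between the groups when the lengths of the count tables are used. Lefty2 to Lefty1 gave 1.03 and 1.35 with dox and 1.19 and 1.495 without, and these overlapped. Summed over the 9 genes, the level was 1582 and 1593 CPM with dox and 1515 and 1520 CPM without.

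The other genes of the pathway were taken by role, 33 in all, and not by how they moved, although 4 of its targets (Mixl1, Eomes, Lhx1 and T) were already known to be lower with dox in these data. All 33 were tested, and 6 were called lower, 0 higher and 27 not. Of all genes tested, 0.519% were called lower and 0.0798% higher. An unadjusted p under 0.05 was reached by 16 of the 33, beside 17.8% of all genes tested. The median log2 fold change of the 33 was −0.23, beside 0.01 for all genes tested. All 6 called genes are targets of the pathway, 4 of them the ones known earlier. DESeq2 called 8, again targets in each case, beside 2.71% of the genes to which it gave an adjusted p-value. Genes outside the targets were called only by other settings, Cfc1 by edgeR's likelihood ratio test and at a threshold of 0.05, and Cfc1, Skil and Smad7 with a replicate block, apart from the fits that leave out a library. The counts at an unadjusted p under 0.05 in the default edgeR test were 2 of 5 ligands and processing enzymes, 2 of 5 receptors and co-receptors, 0 of 3 inhibitors and 4 of 11 mediators and regulators.

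Outside the target genes, most values lay closer to those without dox. Furin and Pcsk6, proprotein convertases that cleave the Nodal precursor, had log2 fold changes of −0.36 (SE 0.10, adjusted p = 0.0851 by edgeR's test) and −0.26 (SE 0.12, adjusted p = 0.286). Acvr2b and Acvr1b, activin receptors, had −0.31 (SE 0.11, adjusted p = 0.148) and −0.34 (SE 0.16, adjusted p = 0.281). The extracellular inhibitors with the highest levels, Fstl3 and Fst, which bind activins, had 0.28 (SE 0.23, adjusted p = 0.593) and −0.20 (SE 0.35, adjusted p = 0.808). The groups overlapped for all 3 inhibitors, beside 10623 of all 20044 genes tested. Of 5 ligands and processing enzymes, 2 overlapped, 2 were lower with dox and 1 higher. Of 5 receptors and co-receptors, 0 overlapped, 4 were lower and 1 higher. Of 11 mediators and regulators, 4 overlapped, 4 were lower and 3 higher. Fstl3 and Fst differed in sign between replicates, with log2 fold changes of 0.58 and −0.07 for Fstl3 and 0.52 and −1.25 for Fst in replicates 1 and 2. For the phosphatase Ppm1a and the co-repressor Ski, which act on Smad proteins, the values were 0.09 (SE 0.09, adjusted p = 0.691) and 0.14 (SE 0.10, adjusted p = 0.566). Cfc1, the other EGF-CFC co-receptor, was picked out after its values were seen. It had 0.577 and 0.701 CPM with dox and 2.46 and 2.31 CPM without, well apart but not called (log2 fold change −1.89, SE 0.35, adjusted p = 0.0183). The receptor gene Acvr1c had 2, 1, 0 and 0 reads and was not measurable at this depth.

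Target genes of the pathway include regulators of the primitive streak, mesoderm and endoderm. Lhx1, a LIM homeobox factor of the streak and the anterior mesendoderm, had 1.11 and 0.876 CPM with dox and 17.2 and 21.2 CPM without. Its log2 fold change was −4.27 (SE 0.25), and no p-value is given for it, Mixl1, T and Eomes, the targets known earlier. Mixl1, a homeobox factor of the streak, had 0.266 and 0.525 CPM with dox and 4.49 and 4.34 CPM without. Its log2 fold change was −3.46 (SE 0.37). In both genes the +dox libraries were far below the −dox libraries.

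T (Brachyury), the T-box factor of nascent mesoderm, stood at 5.73 and 7.18 CPM with dox and at 46.3 and 66.7 CPM without, a log2 fold change of −3.13 (SE 0.20). The related factor Eomes stood at 10.97 and 11.7 CPM against 34.9 and 39.5 CPM, a log2 fold change of −1.71 (SE 0.15). Each kept a level of several CPM with dox, unlike Cer1, but Cer1 also had a far lower level without dox (5.17 and 5.62 CPM). Foxa2 and Sox17, factors of the definitive endoderm, were not among the 4 targets known earlier. Foxa2 had 1.55 and 1.44 CPM with dox and 8.28 and 12.6 CPM without, with a log2 fold change of −2.79 (SE 0.28, adjusted p = 0.00046, edgeR's quasi-likelihood test). Sox17 had 1.20 and 1.71 CPM with dox and 7.66 and 9.64 CPM without, with a log2 fold change of −2.57 (SE 0.28, adjusted p = 0.000713, edgeR). Neither gene overlapped between groups. The list of targets was drawn up with earlier results of these data known, so these 2 adjusted p-values are a description and not a test.

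Of the targets that were not called, picked out after their values were seen, Gsc had a log2 fold change of −1.26 (SE 0.22, adjusted p = 0.0131 by edgeR's test) and Hhex of 0.19 (SE 0.22, adjusted p = 0.709). The median over the 9 targets was −2.57, and over the 5 that were not known earlier it was −1.26. Of these 5, 2 were called lower, beside 0.519% of all genes tested. A fit without 1 library has a lone library in that group, so it cannot show whether calls of the pathway genes rest on 1 library. Summed over 11 primitive streak genes, the level was 41.6 and 41.3 CPM with dox and 168 and 196 CPM without. Called lower were 6 of the 11, beside 0.519% of all genes tested. However, 6 of the 11 are themselves in the list of targets, 5 of them called. The other 5 genes, separated after seeing the data, summed to 17.5 and 15.4 CPM with dox and 44.9 and 42.6 CPM without, with 1 of them (Fgf8) called lower. Over 9 genes of primitive or visceral endoderm the sum was 46.5 and 49.1 CPM with dox and 59.4 and 63.3 CPM without, with Dab2 and Gata4 highest (23.7 to 30.0 and 5.33 to 11.6 CPM), Gata6 and Sox17 called lower, Ttr at 0 in every library and Afp under 0.2 CPM. That list went both ways, since 4 of the 9 had a log2 fold change above 0. Called lower were 2 of the 9, beside 0.519% of all genes tested. Dab2 and Cubn were higher in both +dox libraries (0.22 and 0.88). Gata6, Gata4, Sox17 and Hnf4a were lower in both (−2.16, −1.06, −2.57 and −1.74). Of all 20044 genes tested, 4665 were higher and 4756 lower in this way. The median was −0.04, the value of Afp, and −0.51 over the 8 genes averaging 1 CPM or more. Sox17 is also a target, and without it the sum was 45.3 and 47.4 CPM with dox and 51.7 and 53.6 CPM without. These sums were lower in both +dox libraries, as Cer1 was, and their part in the difference of Cer1 was not tested.

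**Figure D4:**
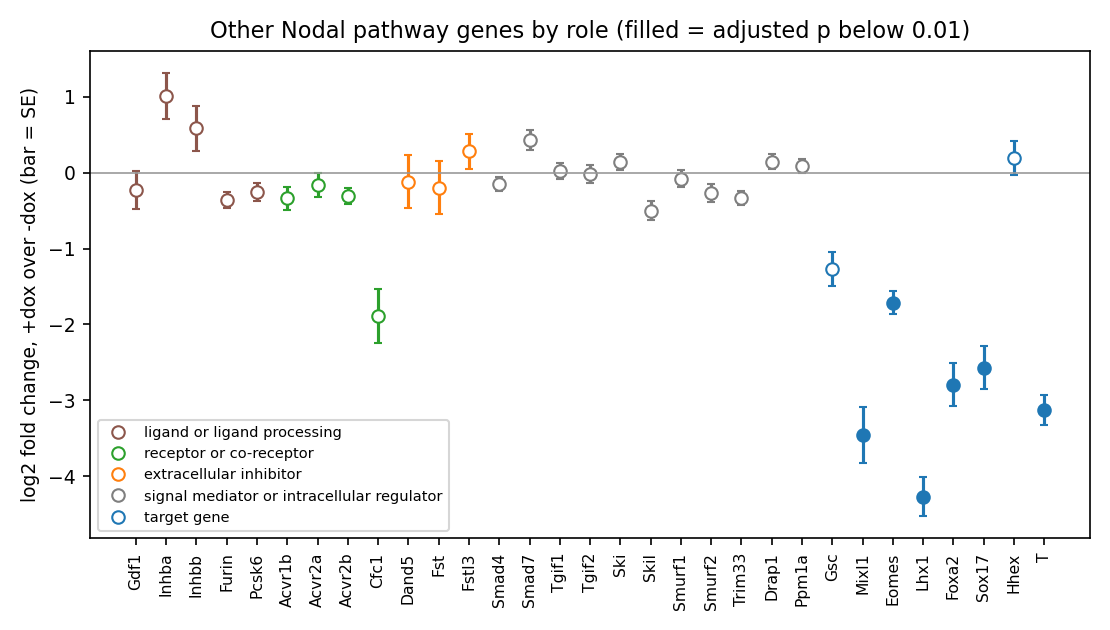
Log2 fold change, +dox over −dox, with its SE for the other pathway genes averaging 1 CPM or more (1 of them not drawn), coloured by role, with filled symbols for an adjusted p-value under 0.01. The 6 filled symbols are all target genes and run from −1.71 (Eomes) to −4.27 (Lhx1), while the genes of the other roles, apart from Cfc1 at −1.89 and Inhba at 1.01 (1.55 in replicate 1 and 0.20 in replicate 2), lie within −0.50 and 0.58.

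Pattern across libraries was also used to find the genes most like Cer1, the only 1 of the 9 that edgeR's default test called. The measure was the Euclidean distance between log2 CPM values centred on the mean of each gene over the 4 libraries, among genes averaging 1 CPM or more. The nearest was Lhx1 (distance 0.704), followed by Cyp26a1 (1.08), which encodes a retinoic acid hydroxylase, and Mixl1 (1.77). Cyp26a1 had 0.933 and 0.613 CPM with dox and 9.82 and 14.4 CPM without. All 3 were picked for this pattern, so their low level with dox follows from the choice, and they averaged 1 CPM or more only through the −dox libraries (means with dox of 0.993, 0.773 and 0.396 CPM).

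Position was not used to choose the 9 genes, so the nearest gene on each side averaging 1 CPM or more was tested as well. These are 17 genes. edgeR's quasi-likelihood test called 0 of the 17, beside 0.599% of all genes tested. DESeq2 called 0, beside 2.71% of the genes to which it gave an adjusted p-value. At such low shares, 0 of 17 says little about these genes. An unadjusted p under 0.05 was reached by 0 of the 17 in either test, beside 17.8% of all genes in edgeR's. Log2 fold changes of the 17 ran from −0.34 (Tmem63a, next to Lefty1) to 0.41 (Zbtb7c, next to Smad2), with a median of 0.02. Beside Cer1, Zdhhc21 (22089 bp away) had 21.6 and 22.7 CPM without dox and 19.2 and 16.9 CPM with it, a log2 fold change of −0.29 (SE 0.16, adjusted p = 0.369, edgeR), and Ttc39b (335149 bp away) had −0.09 (SE 0.12, adjusted p = 0.733). Next to Gdf3, the pluripotency gene Dppa3 (16352 bp away) had 63.7 and 66.9 CPM with dox and 62.0 and 65.2 CPM without, and its groups overlapped. Smad6, an inhibitory Smad gene 195081 bp from Smad3, had 13.2 and 15.6 CPM with dox and 9.63 and 15.1 CPM without, a log2 fold change of 0.22 (SE 0.22, adjusted p = 0.68, edgeR). These neighbours were named after their values were seen.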

How the data were processed

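RNA-seq counts of 4 libraries of F1-2.1 mESCs (clone A2) were analysed. Before deposit, the authors used cutadapt for trimming, TopHat2 for alignment to mm9 and HOMER for counting, with PCR duplicates discarded and only uniquely placed exonic reads kept. The deposited values are raw counts per gene, in 1 table per replicate. Versions and the use of strand are not given in the sources used here. Samples were grouped by their labels. The 9 genes and the lists of pathway, marker and motif terms were chosen with earlier results of these data known.

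The tables were joined by symbol, and 20044 of 24421 genes had at least 1 count in at least 1 library. These were scaled by TMM and tested in edgeR 4.0.16 under R 4.3.3 by quasi-likelihood (default settings, no replicate block), with Benjamini-Hochberg adjustment over all genes and a threshold of 0.01. SEs were taken from the test statistic. The study's tool, DESeq2 1.42.0, was an alternative, with others named in the closing section. Fits were tested on simulated data. Counted reads ran from 22899107 to 30206085 per library. CPM are TMM-scaled counts, and RPKM divide them by transcript length. With 2 libraries per group, called biological replicates by the study, p-values measure the spread between these cultures only. None of the 9 genes shares exon bases with another annotated gene (GENCODE, NCBIM37). Exons were compared with the genome in windows of 50 nt.

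Genes named were the 9, all other pathway genes that were called and the 2 with the highest mean CPM per role, the 3 genes nearest in pattern to a called member and the 2 highest of each marker list. Other pathway, marker and neighbouring genes whose values are given were picked after those values were seen, and only some are marked so in the text. Some genes are counted in the lists but not reported here by name.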

Additional observations from a re-analysis of the deposited data

How the results depend on the processing

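The main settings called 120 genes, 1 of the 9 Nodal genes (Cer1) and 6 of the 33 other pathway genes. DESeq2 called 375 genes and 2 of the 9 (Cer1, Gdf3), edgeR's likelihood ratio test 457 and 2, and a threshold of 0.05 gave 573 and 2. With edgeR's adjusted deviances, 0 genes were called, 0 of the 9 and 0 of the 33, although 3254 genes had an unadjusted p under 0.05, and edgeR's default was kept with both outcomes known. The filterByExpr filter left 11 genes and 3 of the 33, with Cer1 among the 11. Leaving out each library in turn gave 0 to 992 genes, 0 to 3 of the 9 and 0 to 11 of the 33: 992 without +dox replicate 1, 877 without +dox replicate 2 and 0 without either −dox replicate (1753 and 1450 genes at an unadjusted p under 0.05). The 3 of the 9, without +dox replicate 1, were Cer1, Gdf3 and Smad3. The lone library is then assumed to vary like the other group. The cause was not tested.

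The labels name no shared day or batch for libraries of the same replicate number, and the main settings did not pair them. Their differences had a correlation of 0.196 over 13911 genes, from 2 pairs. A replicate block gave 786 genes, 2 of the 9 (Cer1, Gdf3) and 11 of the 33, among them Cfc1, Skil and Smad7, which are not targets.

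Over 12 alternative fits, the direction held in all 12 for Nodal, Gdf3, Lefty2, Cer1 (−5.87 to −5.29, called in 9), Foxh1 and Smad3. The sign turned in 2 fits for Tdgf1, in 3 for Lefty1 (−0.21 to 0.24) and in 1 for Smad2. None of the 17 neighbouring genes was called in any, with up to 4 at an unadjusted p under 0.05. Counting depth limits Cer1, which had 3 and 2 reads with dox.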
